A study of Homo sapiens with 12 samples.

Results

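The genes described here are feedback brakes and readouts of the MAP kinase pathway, the cascade in which Ras activates RAF, MEK and ERK kinases, and in which related branches activate p38 and JNK. A total of 10 genes was listed, and the rule took each row of the expression table that the platform annotation names with a listed symbol. DUSP4, DUSP5, DUSP6, DUSP10, SPRY2, ETV5 and EGR1 had 9 rows among them, so 7 of the 10 genes were measured, out of 14884 genes with a row. SPRY1, SPRED1 and SPRED2 had no row under their symbol and were not analysed here.

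Active ERK switches on transcription of its own inhibitors, so transcripts of this family are commonly read as a gauge of pathway output. The dual-specificity phosphatases (DUSP) remove the activating phosphates from MAP kinases, and each prefers certain kinases and a certain compartment. Sprouty (SPRY) and SPRED proteins restrain signalling between receptor tyrosine kinases and RAF. ETV5 and EGR1 are transcription factors whose genes respond to ERK. The cells studied here derive from multiple myeloma, a cancer of plasma cells.

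Transcripts of MM.1S, an established human myeloma line known for its glucocorticoid sensitivity, were measured on 12 Affymetrix arrays, 3 per group. The 4 groups were control cells, given vehicle alone, PD cells, given 500 nM pomalidomide with 10 nM dexamethasone, FPD cells, given both plus 1 nM filanesib, and F cells, each for 24 h. Pomalidomide is a cereblon ligand that leads to loss of IKZF1 and IKZF3, dexamethasone is a synthetic glucocorticoid, and filanesib inhibits the kinesin spindle protein. F cells received 1 nM filanesib, and their treatment and source labels add 10 nM dexamethasone, whereas the title and the shared protocol say only F. All groups are a single cell line, and the labels do not say whether arrays of a group were separate cultures, and a p-value here speaks only of the spread among arrays, part or all of which may be technical.

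Values are log2 RMA expression, where a difference of 1 is a doubling. The median of an array ranged from 4.23 to 4.27, and within a group Pearson's r was 0.988 to 0.992 across the 53617 rows. The plasma cell markers SDC1, XBP1 and MZB1 read 10.16 to 11.22 as group means, while POU2AF1, of the same list, read 5.36 to 5.62. The list mean of the 7 measured plasma cell markers was 9.62 to 9.68 in the control arrays, 9.61 to 9.67 in the F arrays, 9.3 to 9.4 in the PD arrays and 9.31 to 9.36 in the FPD arrays. That of 4 myeloid markers was 3.44 to 3.6 over all arrays, that of 2 T cell markers 3.92 to 4.37 and that of 2 B cell markers 4.21 to 4.55. EPCAM, the only measured stromal or epithelial marker, read 4.31 to 4.7. Within the plasma cell list, IRF4 averaged 11.44 in control, 10.21 in PD and 10.09 in FPD while SDC1 averaged 10.19, 10.16 and 10.21. Of the 7 measured plasma cell markers, 2 were called lower than control in PD and 2 in FPD, and 0 higher, by the limma test used below. Over all genes 15.5% were called in PD and 13.1% in FPD. The part of the lower list mean in the PD and FPD results below was not tested.

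Sequence upstream of the start site was taken from the RefSeq promoter table of build GRCh38.p14, which held 7 windows for 4 of the measured members (DUSP6, DUSP10, SPRY2 and EGR1). The 250 bases before 1 annotated start of SPRY2, a member that rose, are shown 5′ to 3′ on the strand of the gene. So are those before the start of EGR1, the classical ERK-responsive promoter of the set. SPRY2 occupies chr13:80341127-80341376 on the minus strand and EGR1 chr5:138465229-138465478 on the plus strand. Capitals mark matches to 4 motifs searched on both strands, namely the CArG box bound by serum response factor, the ETS cores CCGGAA and CAGGAA, and a palindromic form of the glucocorticoid response element, GNACA and TGTNC with 3 bases between them.
SPRY2: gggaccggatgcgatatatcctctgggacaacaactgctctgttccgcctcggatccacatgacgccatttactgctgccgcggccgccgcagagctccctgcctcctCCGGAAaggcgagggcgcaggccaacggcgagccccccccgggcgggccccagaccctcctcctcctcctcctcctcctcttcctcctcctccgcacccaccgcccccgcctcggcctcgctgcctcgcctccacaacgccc
EGR1: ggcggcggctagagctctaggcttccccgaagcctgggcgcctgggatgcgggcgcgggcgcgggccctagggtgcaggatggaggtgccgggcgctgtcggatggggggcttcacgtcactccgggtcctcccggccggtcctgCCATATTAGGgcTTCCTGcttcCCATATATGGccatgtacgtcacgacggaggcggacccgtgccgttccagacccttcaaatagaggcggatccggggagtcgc

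The EGR1 window held 2 CArG boxes, CCATATTAGG and CCATATATGG, beginning 105 and 83 bases before the start, with a CAGGAA core on the reverse strand (TTCCTG) between them. No matches overlapped. A CArG box was present in 1.16% of all 35116 windows searched over the same 250 bases. The SPRY2 window shown, 1 of 3 for that gene, held 1 CCGGAA core, beginning 142 bases before the start. The other SPRY2 windows lacked this motif, which was found in 14.5% of all windows. CAGGAA, present in 24.1% of all windows, also occurred in 1 of the 3 SPRY2 windows, at another annotated start, and in 1 of the 2 DUSP10 windows. The glucocorticoid palindrome matched 0.327% of all windows and none of the 7 windows of the members. These matches describe letters in the reference sequence, and binding was not measured.

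PD against control gave the response of the members to pomalidomide plus dexamethasone. DUSP4 and SPRY2 rose, by 1.57-fold and 1.39-fold, and no member was called lower. Thus 2 of 7 measured members were called (limma, Benjamini-Hochberg adjusted p under 0.05 over all genes), where 15.5% of all genes were called and 6.84% were called higher. With 7 genes the members' count is too small to set apart from that background. Arrays of the groups did not overlap at all for 29% of genes in PD against control, 29.9% in FPD and 10% in F against control, 14.4% in FPD against PD, 30.3% in FPD against F and 30.9% in PD against F. The median log2 change of the members was 0.08, beside -0.0027 over all genes.

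DUSP4 encodes an inducible nuclear phosphatase that acts on ERK and other MAP kinases (transcript cluster 17075973). Its control arrays read 7.69, 7.82 and 8.01 and its F arrays 7.77, 7.7 and 7.41. The PD arrays read 8.46, 8.36 and 8.64 and the FPD arrays 8.59, 8.6 and 8.43. Every array with pomalidomide thus lay above every array without it, while the control and F arrays overlapped, as did the PD and FPD arrays. The mean went from 7.84 ± 0.161 in control to 8.49 ± 0.144 in PD (SD, n = 3 per group; log2 change 0.65, SE 0.12, limma adjusted p = 0.00105). In FPD it was 8.54 ± 0.0958 (SD, n = 3; log2 change from control 0.70, SE 0.12, limma adjusted p = 0.000656).

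The order of DUSP4 levels was F, control, PD and FPD, with F at 7.63 ± 0.187 (SD, n = 3). The outer steps of that order did not pass the test. F minus control was -0.21 (95% interval -0.46 to 0.04, limma adjusted p = 0.865) and FPD minus PD was 0.05 (95% interval -0.20 to 0.30, limma adjusted p = 0.929). FPD was 1.88-fold above F (log2 change 0.91, limma adjusted p = 5.9e-05), and PD was 1.82-fold above F (log2 change 0.86, limma adjusted p = 7.9e-05). A change as large as that of DUSP4 in PD, in either direction, was seen in 606 of the 14884 genes.

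SPRY2 encodes a Sprouty protein that dampens signalling from growth factor receptors to ERK (transcript cluster 16780069). The control arrays read 4.09, 3.77 and 3.96, and the F arrays 3.91, 4.02 and 4.03. The PD arrays read 4.44, 4.21 and 4.59, all above the control and F arrays, and the FPD arrays 4.22, 4.07 and 4.23, overlapping both control and PD. These values lie near the array medians and were not shown to be above background. The size of the change may be understated, and whether the signal comes from SPRY2 transcript was not tested. The mean was 3.94 ± 0.163 in control and 4.42 ± 0.19 in PD (SD, n = 3 per group; log2 change 0.47, SE 0.11, limma adjusted p = 0.00752). PD also exceeded F (log2 change 0.43, limma adjusted p = 0.0128). Without PD replicate 3 that difference was 0.34 and missed the threshold (limma adjusted p = 0.0692).

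In FPD, SPRY2 stood at 4.17 ± 0.0912 (SD, n = 3), and its log2 change from control was 0.23 (95% interval -0.01 to 0.47, limma adjusted p = 0.217). Levels therefore ran control, F, FPD and PD. The neighbours F and FPD (log2 difference 0.18, limma adjusted p = 0.349) and FPD and PD (log2 difference FPD minus PD -0.24, 95% interval -0.48 to -0.01, limma adjusted p = 0.556) were not separated by the test. The call against control in PD and the missed call in FPD are thus not shown to differ.

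**Figure D1:**
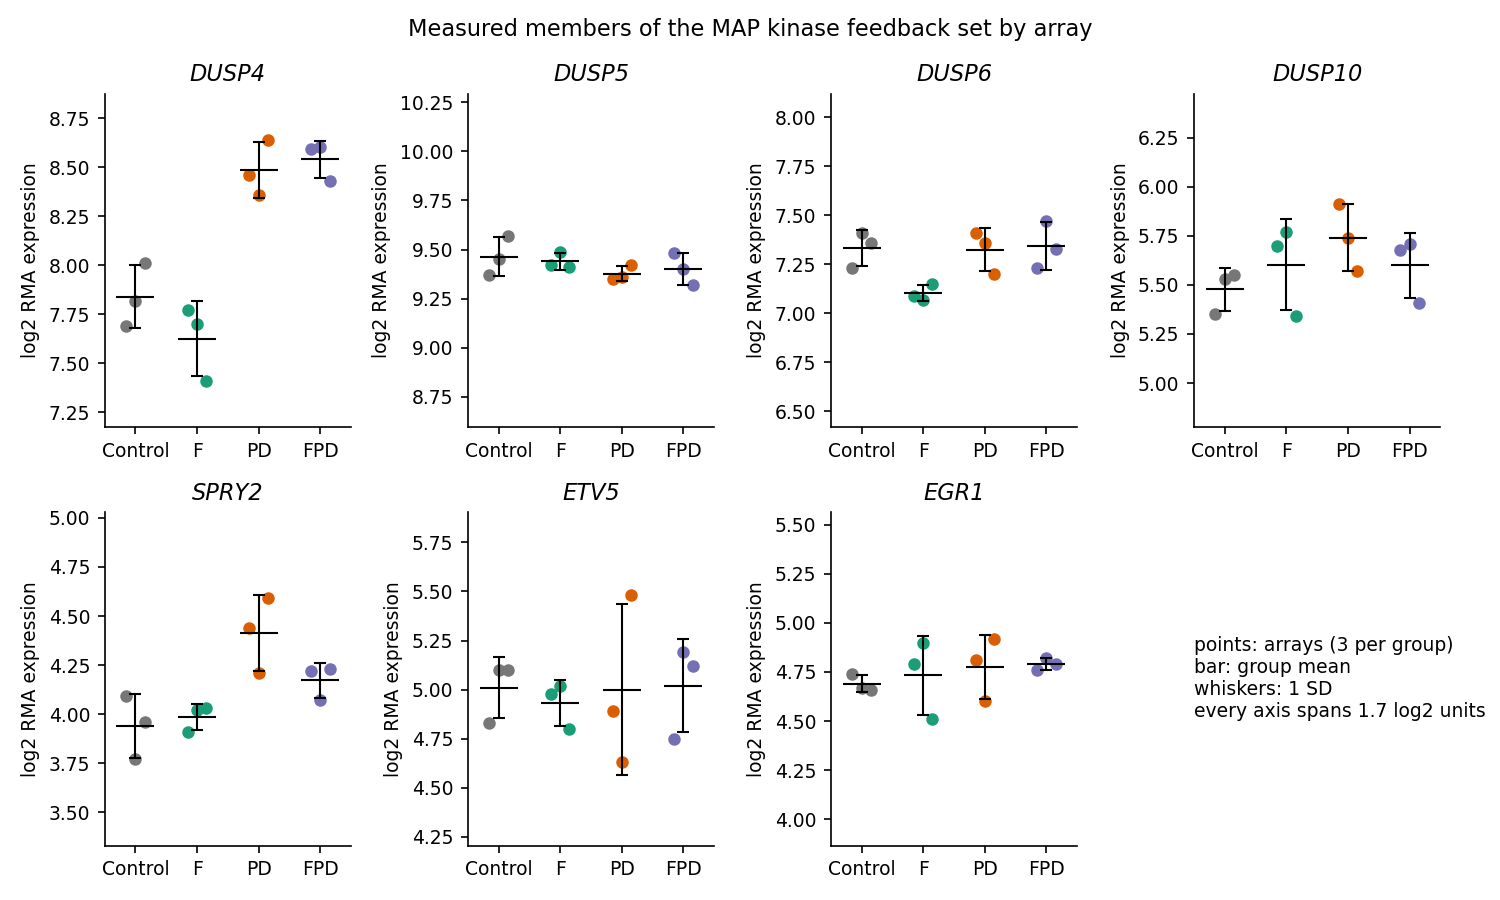
Log2 RMA expression of the 7 measured members in each array (points, 3 per group), with the group mean (bar) and 1 SD (whiskers), in control, F, PD and FPD cells; each vertical axis spans 1.7 log2 units. DUSP4 lies between 8.36 and 8.64 in the PD arrays and between 8.43 and 8.6 in the FPD arrays, above its highest control value of 8.01, and the 3 PD arrays of SPRY2 lie above its control arrays.

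Among the other phosphatases, DUSP6, the cytoplasmic phosphatase specific for ERK (transcript cluster 16768297), read 7.23, 7.41 and 7.36 in control and 7.41, 7.36 and 7.2 in PD. Its FPD arrays read 7.23, 7.47 and 7.33, and its F arrays 7.09, 7.07 and 7.15. The F arrays were below all other arrays, while the other 3 groups overlapped. The log2 change from control was -0.01 in PD (95% interval -0.22 to 0.19, limma adjusted p = 0.953) and 0.0088 in FPD (limma adjusted p = 0.973). In F it was -0.23 (95% interval -0.43 to -0.03, unadjusted p = 0.0283 in limma, adjusted p = 0.754). Separation of the F and control arrays in either direction occurred in 10% of all genes. Against F, the log2 difference of DUSP6 was 0.22 in PD (limma adjusted p = 0.145) and 0.24 in FPD (limma adjusted p = 0.119). The former passed the test when the arrays were quantile normalized again (log2 difference 0.29, limma adjusted p = 0.044).

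DUSP10, which prefers p38 and JNK over ERK (transcript cluster 16699533), read 5.35, 5.53 and 5.55 in control and 5.91, 5.74 and 5.57 in PD. The PD arrays were just above the control arrays, a separation that 29% of all genes showed in this comparison in either direction. The log2 change was 0.26 (95% interval -0.01 to 0.53, limma adjusted p = 0.209). F and FPD stood at 5.6 ± 0.229 and 5.6 ± 0.167 (SD, n = 3 each), overlapping the other groups.

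DUSP5, a nuclear phosphatase specific for ERK, lay between 9.32 and 9.57 in all 12 arrays of its higher row (transcript cluster 16709128). The 4 groups overlapped, with means from 9.38 ± 0.0404 in PD to 9.46 ± 0.103 in control (SD, n = 3 each), and PD minus control was -0.09 (95% interval -0.27 to 0.10, limma adjusted p = 0.61). Its second row (transcript cluster 16718386) read 5.99, 5.82 and 6.85 in PD, 5.8 to 5.96 in control, 5.37 to 5.77 in F and 5.58 to 5.85 in FPD. PD minus F of that row was 0.67 (limma unadjusted p = 0.00945, adjusted p = 0.0917 over all rows). FPD minus PD was -0.52 (limma unadjusted p = 0.0327, adjusted p = 0.569 over all rows). PD replicate 3 was the high array of that row. The mean of both rows changed by 0.13 in PD (limma adjusted p = 0.577), opposite in sign to the higher row.

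The transcription factors of the set did not pass the test in any comparison. ETV5, an ETS factor of the PEA3 group (transcript cluster 16962380), stood at 5.01 ± 0.155 in control, 4.93 ± 0.121 in F, 5 ± 0.435 in PD and 5.02 ± 0.237 in FPD (SD, n = 3 each). Its PD arrays spread more than those of any other member's higher row, from 4.63 to 5.48, so a change of up to 0.36 upwards or 0.38 downwards lies within the 95% interval of PD minus control. EGR1, a zinc finger factor of the immediate early response (transcript cluster 16989736), lay between 4.51 and 4.92 in all arrays, with 4.69 ± 0.0448 in control and 4.77 ± 0.162 in PD (SD, n = 3 each; log2 change 0.08, 95% interval -0.15 to 0.31, limma adjusted p = 0.708). The FPD arrays of EGR1, 4.76 to 4.82, lay just above the control arrays, 4.66 to 4.74, a separation in either direction seen in 29.9% of all genes (log2 change 0.10, limma adjusted p = 0.657). The second EGR1 row (transcript cluster 17000463), at 3.16 to 3.8, differed in sign there (log2 change -0.21, limma adjusted p = 0.512 over all rows). FPD minus PD of that row was -0.31 (limma unadjusted p = 0.0322, adjusted p = 0.568 over all rows). Both rows are close to or below the array medians and were not shown to be above background.

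The effect of the filanesib arm on the members was read from F against control. None of the 7 passed the test in limma, where 0.00672% of all genes were called. Of the 7 members, 1 (DUSP6) had an unadjusted p under 0.05 in limma, as did 895 of all 14884 genes. The changes ran from -0.23 for DUSP6 to 0.12 for DUSP10, with a median of -0.02 beside -0.0051 over all genes. In FPD against control 1 of 7 members, DUSP4, was called, where 13.1% of all genes were called and 7.26% were called higher. PD, F and FPD shared their control arrays, so these 3 comparisons are not independent of each other.

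Adding filanesib to pomalidomide and dexamethasone moved no member past the threshold (FPD against PD, limma), and 0.0336% of all genes were called. On the rows kept, 1 member (SPRY2) had an unadjusted p under 0.05 in limma, as did 1283 of all 14884 genes. So did the second rows of DUSP5 and EGR1, given above. DUSP10 had a log2 difference of -0.14 (limma adjusted p = 0.783) and DUSP6 of 0.02 (limma adjusted p = 0.962). The departure from additivity is FPD minus PD less F minus control. Because the labels disagree on whether F cells also received dexamethasone, it cannot be read as filanesib with against without both other drugs, and FPD against F may differ by pomalidomide alone. It was called for no member and for 0% of all genes. An unadjusted p under 0.05 in limma was reached by no member and by 833 of all 14884 genes. The departure was 0.26 for DUSP4 (95% interval -0.09 to 0.61, limma adjusted p = 0.896), 0.25 for DUSP6 (-0.03 to 0.54, adjusted p = 0.888), -0.26 for DUSP10 (-0.65 to 0.12, adjusted p = 0.896) and -0.29 for SPRY2 (-0.62 to 0.04, adjusted p = 0.889). These intervals are wide beside the changes themselves. Against F, 1 of 7 members was called in FPD (14.1% of all genes, 7.5% higher) and 2 of 7 in PD (17.3% of all genes, 7.43% higher), DUSP4 in both and SPRY2 in PD.

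**Figure D2:**
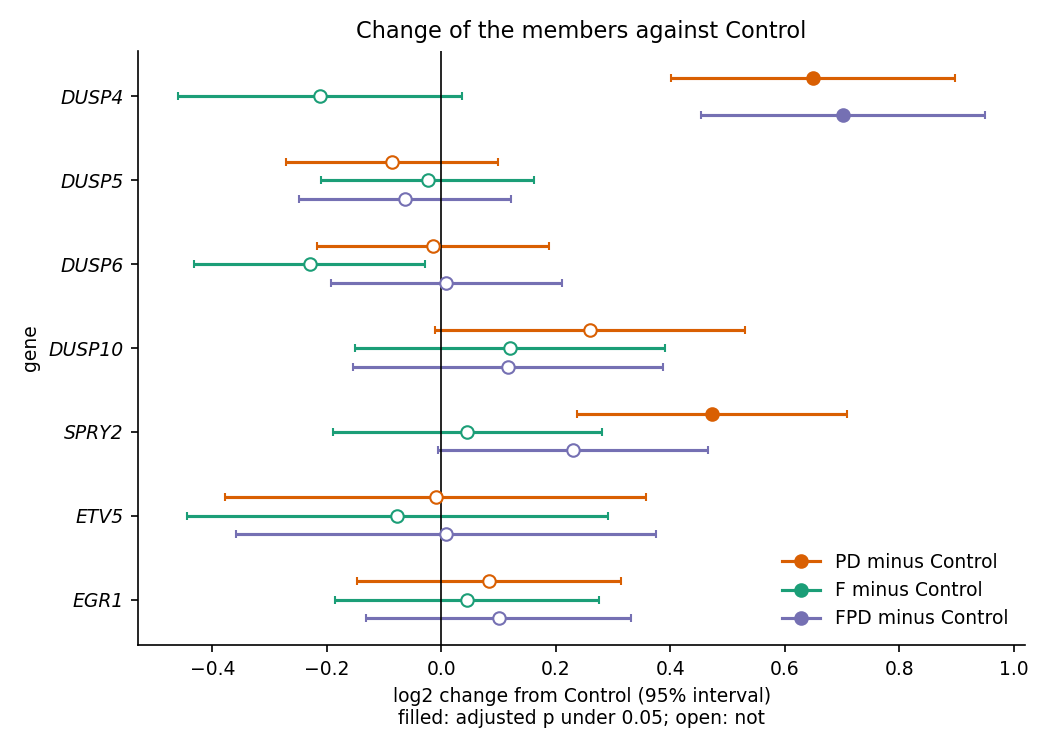
Log2 change of each measured member from control in PD, F and FPD cells, from the limma model over all 12 arrays, with 95% intervals; filled symbols passed an adjusted p of 0.05. DUSP4 is filled in PD (0.65) and FPD (0.70) and SPRY2 in PD (0.47), while the interval of DUSP6 in F (-0.43 to -0.03) lies below 0 without passing the adjusted threshold.

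The genes whose centred log2 values came closest to those of DUSP4 over the 12 arrays were WDTC1 (root mean square difference 0.0943) and PER1, a circadian clock gene (0.0981). WDTC1 averaged 8.5 in control, 8.24 in F, 9.05 in PD and 9.09 in FPD, and PER1 7.44, 7.41, 8.09 and 8.16. For both genes F replicate 3 was the lowest array, as for DUSP4. Closest to SPRY2 were IZUMO4 (root mean square difference 0.067) and UROD, an enzyme of haem synthesis (0.0966). IZUMO4 averaged 7.19 in control, 7.24 in F, 7.65 in PD and 7.46 in FPD, and UROD 7.84, 7.83, 8.23 and 8.16. They were picked as the nearest of all genes and carry no test.

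**Figure D3:**
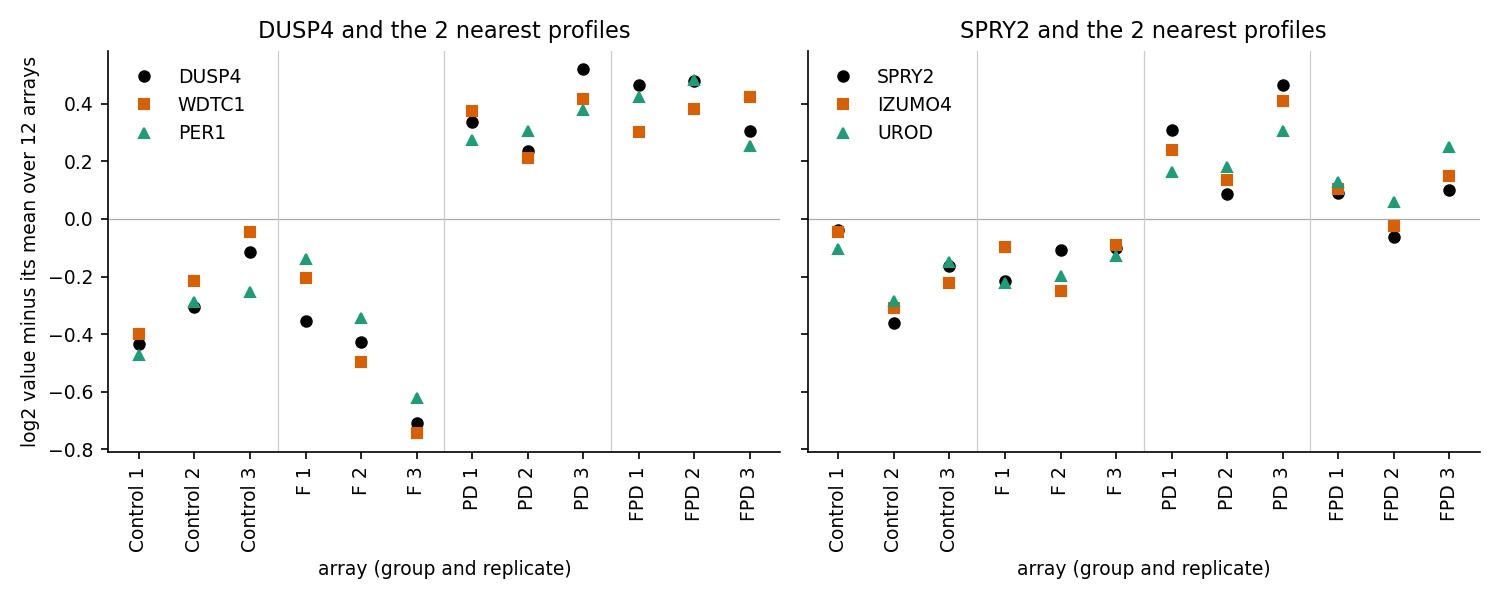
Log2 values of DUSP4 (left) and SPRY2 (right) and of the 2 genes nearest to each, every gene minus its own mean over the 12 arrays, by array; the vertical lines separate the groups. The 3 genes of the left panel are lowest in F replicate 3 and higher in all PD and FPD arrays than in the control arrays.

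Other feedback genes of the pathway were followed in a list of 21, of which 17 were measured. In PD 2 rose and 2 fell, 23.5% of the measured genes beside 15.5% of all genes, and the median change was -0.02. The genes of this list and of those below were chosen with earlier results of these data known. Their shares of called genes were not tested against that of all genes. NF1, whose product neurofibromin switches Ras off, rose from 6.76 ± 0.13 to 7.59 ± 0.132 (SD, n = 3 per group; 1.79-fold, limma adjusted p = 3.85e-05). SPRY3, another Sprouty gene, rose from 5.05 ± 0.102 to 5.58 ± 0.355 (SD, n = 3 per group; log2 change 0.53, limma adjusted p = 0.0193). DUSP7, a cytoplasmic ERK phosphatase, fell from 7.62 ± 0.0679 to 6.69 ± 0.0212 (SD, n = 3 per group; 1.9-fold lower, limma adjusted p = 8.77e-06). DUSP2, an inducible nuclear phosphatase, fell from 7.04 ± 0.137 to 6.54 ± 0.248 (SD, n = 3 per group; log2 change -0.50, limma adjusted p = 0.0131). The phosphatase genes thus moved in both directions, with DUSP4 higher and DUSP7 and DUSP2 lower. SPRY3 missed the threshold when control replicate 1 or 2 was left out (limma adjusted p = 0.0713 and 0.0506), or PD replicate 1 (0.0909). DUSP2 missed it when replicate 3 of control (0.0522) or of PD (0.0709) was left out. Adjusting over all rows of the table also ended the calls of SPRY3 (0.0755) and DUSP2 (0.0521), and fitting only the control and PD arrays that of SPRY3 (0.0502). Without control replicate 1, the list held 1 higher and 4 lower genes.

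In FPD the same 4 genes were called, 23.5% of those measured beside 13.1% of all genes. Their log2 changes were 0.86 for NF1, 0.58 for SPRY3, -0.82 for DUSP7 and -0.56 for DUSP2 (limma adjusted p from 3.49e-05 to 0.0139). SPRY3 lost its call there without control replicate 1 (limma adjusted p = 0.0588) and when adjusted over all rows (0.0635).

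Among 28 ETS and immediate early genes, which lie at the receiving end of ERK signalling, 21 were measured. In PD 1 rose and 6 fell, 33.3% of the measured genes beside 15.5% of all genes, and the median change was -0.14. ETS1, a transcription factor that ERK phosphorylates, fell from 7.59 ± 0.131 to 6.26 ± 0.0744 (SD, n = 3 per group; 2.51-fold lower, limma adjusted p = 5.68e-07), and MYC, the growth-promoting transcription factor, fell by 0.52 on the log2 scale (limma adjusted p = 0.000574). The cyclin gene CCND1 (-0.49), SRF (-0.37), ATF3 (-0.36) and JUN (-0.29) were the other 4 (limma adjusted p = 0.00558, 0.0264, 0.0344 and 0.0463). The last 3 lay close to the threshold. SRF missed the threshold whichever control or PD array was left out (limma adjusted p 0.0508 to 0.0767), ATF3 without control or PD replicates 1 or 2 (0.103 to 0.115), and JUN without any of them except control replicate 3 (0.0597 to 0.156). With all arrays kept, SRF, ATF3 and JUN also missed it when p-values were adjusted over all rows of the table (0.0721, 0.0895 and 0.0891), SRF (0.0573) and JUN (0.12) after quantile normalizing again, and ATF3 (0.0507) and JUN (0.109) when only the control and PD arrays were fitted. KLF6, a zinc finger transcription factor, rose by 0.69 (1.61-fold, limma adjusted p = 0.000146). The count of lower genes was 3 without control replicate 1, control replicate 2 or PD replicate 2. In FPD KLF6 rose and 3 fell, ETS1 (log2 change -1.19), MYC (-0.83) and CCND1 (-0.70), with limma adjusted p from 1.84e-06 to 0.000415. The genes called in FPD were 19% of those measured, beside 13.1% of all genes.

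Of 32 genes of the ERK cascade itself, 22 were measured, and in PD 4 rose and 3 fell (31.8%, beside 15.5% of all genes; median 0.03). RRAS, a small GTPase related to Ras, rose from 6.21 ± 0.273 to 8.9 ± 0.179 (SD, n = 3 per group; 6.43-fold, limma adjusted p = 5.91e-09). GAB1, a docking protein between receptors and Ras, rose from 8.19 ± 0.185 to 8.9 ± 0.161 (SD, n = 3 per group; 1.64-fold, limma adjusted p = 0.000508). MAP2K1, which encodes MEK1, rose from 8.89 ± 0.0453 to 9.57 ± 0.125 (SD, n = 3 per group; 1.61-fold, limma adjusted p = 8.1e-05). The scaffold gene CNKSR2 (log2 change -0.88, limma adjusted p = 0.000298) and RASGRP3, an activator of Ras (-0.48, limma adjusted p = 0.00757), fell. SOS2, an exchange factor for Ras, also rose (0.49, limma adjusted p = 0.00712), and the adaptor gene GRB2 fell (-0.34, limma adjusted p = 0.0222), the latter losing its call without control replicate 2 (0.0999) or PD replicate 2 (0.104), when adjusted over all rows (0.0508), after quantile normalizing again (0.052) and with only the compared arrays fitted (0.0602). In FPD 5 rose, namely RRAS (2.68), MAP2K1 (0.79), GAB1 (0.60), SOS2 (0.53) and FRS3 (0.40), and CNKSR2 (-0.78) and RASGRP3 (-0.60) fell (limma adjusted p from 7.26e-09 to 0.00953). The genes called in FPD were 31.8% of those measured, beside 13.1% of all genes.

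Of 23 genes listed here for the p38 and JNK branch, 19 were measured. Being listed does not show that a gene, such as MAP3K14, acts mainly in that branch. In PD 2 rose and 4 fell (31.6%, beside 15.5% of all genes, with a median change of -0.10). MAP3K5, which encodes the stress-activated kinase ASK1, rose from 7.32 ± 0.0281 to 9.03 ± 0.171 (SD, n = 3 per group; 3.27-fold, limma adjusted p = 1.94e-07), and MAPK13, a p38 kinase, rose by 0.47 (limma adjusted p = 0.00169). MAPK12, another p38 kinase (log2 change -0.49, limma adjusted p = 0.00649), and MAP3K4 (-0.49, limma adjusted p = 0.00791) had the largest decreases, ahead of MAP3K14 (-0.33, limma adjusted p = 0.0252) and MAP3K20 (-0.29, limma adjusted p = 0.0384). Neither of the latter kept its call throughout, MAP3K14 missing the threshold without control replicates 2 or 3 or PD replicates 1 or 2 (0.0637 to 0.0821) and MAP3K20 without control replicates 1 or 2 or PD replicates 1 or 3 (0.0878 to 0.165). Both also missed it when adjusted over all rows (0.0564 and 0.0706) and after quantile normalizing again (0.0583 and 0.0508), and MAP3K20 with only the compared arrays fitted (0.106) or a mean-variance trend (0.056). The count of lower genes was 2 without control replicate 2 or PD replicate 1, and 2 after quantile normalizing again. In FPD 26.3% of the measured genes of this list were called, beside 13.1% of all genes. MAP3K5 (1.63) and MAPK12 (-0.56) again passed there (limma adjusted p = 2.37e-07 and 0.00293), as did MAP3K11 (0.37), MAPK13 (0.37) and MAP3K14 (-0.31). The last 3 lost their calls without single arrays, MAPK13 without FPD replicate 3 (limma adjusted p = 0.0525), MAP3K11 without control replicate 1 (0.0566) or FPD replicate 2 (0.0554), and MAP3K14 without control replicates 2 or 3 or any FPD array (0.0593 to 0.152). MAP3K14 also missed it when adjusted over all rows (0.091) and with only the compared arrays fitted (0.0521).

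Of 18 receptors upstream of ERK 13 were measured, and in PD 1 rose and 2 fell (23.1%, beside 15.5% of all genes). The insulin receptor gene INSR rose in PD from 7.41 ± 0.199 to 8.21 ± 0.118 (SD, n = 3 per group; 1.74-fold, limma adjusted p = 0.000119). MET, the receptor of hepatocyte growth factor, fell from 5.93 ± 0.268 to 4.97 ± 0.217 (SD, n = 3 per group; 1.94-fold lower, limma adjusted p = 9.96e-05), and FGFR2, at a low level, fell by 0.46 on the log2 scale (limma adjusted p = 0.0058). In FPD 38.5% of the measured receptors were called, beside 13.1% of all genes. INSR (0.86) and EGFR (0.49) rose there, the latter from 4.02, a level not shown to be above background. MET (-0.70), FGFR2 (-0.57) and FGFR3 (-0.32) fell in FPD, with limma adjusted p of 0.00179, 0.00137 and 0.0443. FGFR3 lost its call when any single control or FPD array was left out (limma adjusted p 0.0534 to 0.164), when adjusted over all rows (0.104) and with a mean-variance trend (0.063).

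In F against control none of the measured genes of these lists was called in limma. An unadjusted p under 0.05 in limma was reached by 0 of 17 other feedback genes and 0 of 21 ETS and immediate early genes. It was reached by 1 of 22 ERK cascade genes, 1 of 19 p38 and JNK cascade genes and 4 of 13 receptors. Over all genes it was reached by 895 of 14884. In FPD against PD none was called either, with 1, 2, 1, 2 and 1 genes at an unadjusted p under 0.05 in the order of the lists above. Over all genes 1283 of 14884 reached that level in this comparison.

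**Figure D4:**
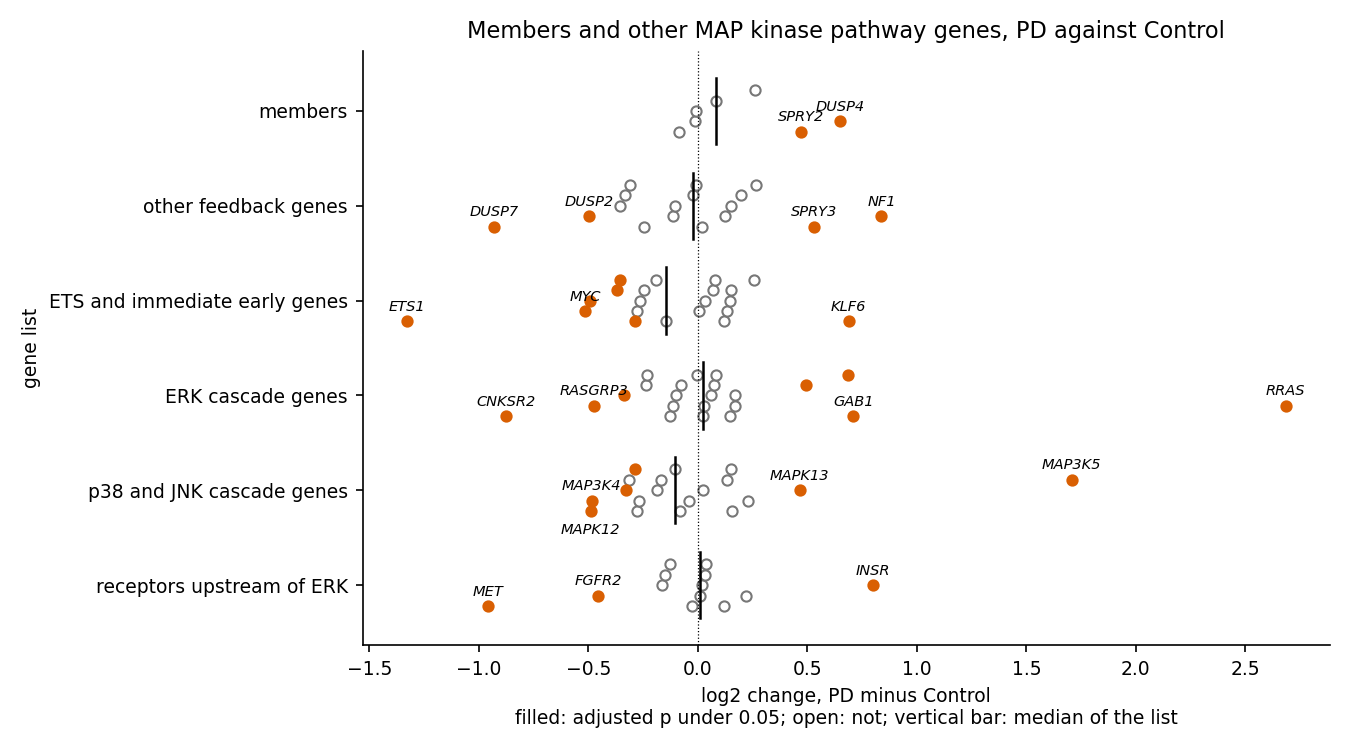
Log2 change in PD against control for the 7 measured members and for each measured gene of the 5 pathway lists (points; filled where the adjusted p was under 0.05), with the median of each list (vertical bar). Called genes lie on both sides of 0 in every list of other genes, from -1.33 for ETS1 to 2.68 for RRAS, while both called members, DUSP4 and SPRY2, lie above 0.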

How the data were processed

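The deposited table holds log2 expression per transcript cluster, which the submitters' processing notes credit to Affymetrix Expression Console with RMA. RMA corrects background, equalises the distributions of arrays and compresses low signals, so changes of weak transcripts are understated. Versions of both, and the genome build, are not given in the sources used here. By the platform annotation, 16098 of 53617 rows carried 1 symbol. Where a gene had several rows (779 genes), its brightest row on average was kept, leaving 14884 genes, all tested with no filter on level. limma 3.58.1 in R 4.3.3 (lmFit, eBayes) fitted the 4 group means over all 12 arrays. Tests were two-sided and adjusted by Benjamini-Hochberg over all genes, with a threshold of 0.05. The script was tested on simulated data.

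The members and gene lists were chosen with earlier results of these data known. All measured members are named. Of each list, the 2 highest and 2 lowest called genes in a comparison are named, and every gene behind a count of 5 or fewer. CCND1, SRF, ATF3 and JUN were named beyond this in PD after their values were seen, and against F only part of the called genes is named. For the members with the highest and lowest called change in PD, the 2 genes nearest by centred values are named. Alternatives covered row choice, normalization, a filter on level, all rows, the compared arrays alone, a mean-variance trend, the replicate block and leaving out each array. Same-numbered arrays of different groups had deviations correlated at -0.256 to 0.158, and different-numbered ones at -0.203 to 0.234. The numbers were therefore not taken to pair the arrays.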

Additional observations from a re-analysis of the deposited data

How the results depend on the processing

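The members called higher in PD against control numbered 2 under every alternative except the filter on genes above the median mean, where SPRY2 was not tested and 1 was called. In PD against F, 1 was called under that filter, and 1 to 2 when single arrays were left out (1 without PD replicate 3), while quantile normalizing again called 3, adding DUSP6 (adjusted p = 0.044). No member was called lower under any alternative, and DUSP4 kept its calls in all of them. With the replicate number as a block, which the labels do not show to be a pairing, the counts of members called were 2 in PD and 1 in FPD against control. Of the list genes named, adjusting over all rows ended the calls of DUSP2, SPRY3, SRF, ATF3, JUN, GRB2, MAP3K14 and MAP3K20 in PD and of SPRY3, MAP3K14 and FGFR3 in FPD against control. Fitting the compared arrays alone ended those of SPRY3, ATF3, JUN, GRB2 and MAP3K20 in PD and MAP3K14 in FPD, quantile normalizing again those of SRF, JUN, GRB2, MAP3K14 and MAP3K20 in PD, and a mean-variance trend those of MAP3K20 in PD and FGFR3 in FPD. The block ended the calls of ATF3 (adjusted p = 0.0536) and JUN (0.0641) in PD and of MAP3K14 (0.0593) in FPD. Of 12 arrays, 5 correlated best with an array of their own number, a count not compared with that of unrelated numbers.

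Several small changes that passed no test changed sign. The mean of rows gave 0.13 for DUSP5 in PD and -0.055 for EGR1 in FPD against control. Quantile normalizing again gave 0.040 for DUSP6 in PD and -0.037 in FPD against PD. Leaving out single arrays gave -0.068 to 0.047 for DUSP6 and -0.25 to 0.18 for ETV5 in PD. It gave -0.073 to 0.030 for DUSP5, -0.041 to 0.12 for SPRY2 and -0.039 to 0.16 for EGR1 in F. In FPD against control it gave -0.055 to 0.064 for DUSP6 and -0.082 to 0.14 for ETV5. In FPD against PD it gave -0.012 to 0.13 for DUSP4 and -0.041 to 0.078 for DUSP6. The cause was not tested. Quantile normalizing again called 1157 genes higher and 1081 lower in PD, against 1018 and 1284.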

Other observations

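Against F, 3 of the 17 other feedback genes were higher in FPD (NF1, SPRY3 and LZTR1) and 3 lower (DUSP7, DUSP2 and DUSP14), where 14.1% of all genes were called. In PD 2 were higher (NF1 and SPRY3) and 5 lower (DUSP7, DUSP2, DUSP14, RASA2 and ERRFI1), where 17.3% of all genes were called. NF1 differed by 0.79 in FPD and 0.77 in PD, and DUSP7 by -0.73 and -0.84 (log2 differences). The calls of SPRY3, LZTR1, DUSP14, RASA2 and ERRFI1 were each lost when adjusted over all rows and without at least 1 single array (adjusted p up to 0.16 without F replicate 3 for LZTR1 in FPD).

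Of the other lists against F, RRAS differed by 2.23 in both groups, MAP3K5 by 1.84 in FPD and 1.91 in PD, INSR by 1.12 and 1.06, ETS1 by -0.99 and -1.13, and MET by -0.95 and -1.21 (log2 differences, limma adjusted p at most 0.000126 among these). The F means of INSR and MET were 7.15 ± 0.0957 and 6.19 ± 0.116, beside control means of 7.41 ± 0.199 and 5.93 ± 0.268 (SD, n = 3 per group).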
